A study of Mus musculus with 12 samples.

Results

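The collagen receptors of the integrin and discoidin families are encoded by 7 mouse genes: the integrin alpha chains Itga1, Itga2, Itga10 and Itga11, the shared beta chain Itgb1, and the discoidin domain receptors Ddr1 and Ddr2. They were taken by gene name from a table of 24279 genes. All 7 were among the 15186 genes that passed the filter on low counts. Itga11 was chosen by its measured level in these same libraries, which was already known to differ between groups, so its values are given as a description with no test. The other 6 belong to the same receptor class and were tested within the fit across all genes.

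Polyadenylated RNA was sequenced from primary embryonic fibroblasts of mice at E 12.5, with 4 groups of 3 libraries. Fortified mutant cells were Rsg1L3P/L3P, with F3 mice on a 10 ppm folic acid diet and a culture medium of 3600 ng/mL folic acid. Fortified wild type cells, labelled wt, had the same diet and medium. Moderate mutant cells were Rsg1L3P/L3P with a 2 ppm diet and a medium of 225 ng/mL, and moderate wild type cells shared that diet and medium. Since the medium differed along with the diet, the effects of diet and medium cannot be told apart. Whether libraries within a group derive from different embryos is not stated in the labels. In each wild type group, a library with Xist, an RNA of female cells, stood beside a library or libraries with Ddx3y, a gene of the Y chromosome. The wild type libraries of a group therefore did not all come from the same embryo, whereas for the mutant groups this stays unknown. The p-values measure the spread between these libraries, which may in part, or in the mutant groups wholly, be technical. Rsg1 encodes a GTPase-like protein of the complex that helps to build primary cilia. Its mRNA was low in every library (1.29 to 3.29 TPM, a level per transcript length and library total), and its level does not check the allele, which the labels name L3P.

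Fibrillar and network collagens are read by cells through integrin heterodimers and through the discoidin receptors. Each collagen-binding alpha chain pairs only with the beta 1 chain and carries an inserted I domain that holds the collagen triple helix, whereas the discoidin receptors are receptor tyrosine kinases that collagen itself activates. In connective tissue, alpha 11 beta 1 is the receptor of mesenchymal cells and fibroblasts for fibrillar collagen I, alpha 1 prefers network collagen IV, alpha 2 serves platelets and epithelia, and alpha 10 is known from chondrocytes.

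The libraries held 39339190 to 48475963 estimated counts. On the first principal component of log2 CPM (counts scaled to library size), the values were 48.1 for fortified mutant 2, 57.5 for fortified mutant 3 and 68.0 for moderate wild type 1, against -68.6 to 4.74 for the remaining 9 libraries. Moderate wild type 2 and 3 lay far out at the other end, at -68.6 and -53.7, but are not among the 3 libraries called apart below. Fortified mutant 2, fortified mutant 3 and moderate wild type 1 also had summed levels that were high for their groups of the 12 skeletal muscle markers (2180, 1610 and 2090 TPM in the same order, against 468 to 1920 TPM elsewhere) and of the 8 neuron markers (190, 120 and 261 TPM, against 34.2 to 89.2 TPM). Of the fibroblast markers, all 12 were detected in every library. All 6 mutant libraries carried Xist, as did moderate wild type 1 and fortified wild type 1 alone among the wild type ones. Ddx3y was at 43.1 and 52.9 TPM in moderate wild type 2 and 3 and at 54 TPM in fortified wild type 3. It was not detected in the others, among them fortified wild type 2. By these genes the mutant libraries were all of the same sex and the wild type ones were mixed. Genotype and sex therefore cannot be fully told apart in the comparisons of genotype.

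The sequences around the start sites of the 2 alpha chains that differed most between groups are shown first, as RefSeq gives them for GRCm38.p6, in windows of 300 bases that are mostly upstream of the start. Itga11 lies on chromosome 9, 62677826 to 62783982, plus strand, with 30 exons in a coding transcript of 4969 bases. Itga10 lies on chromosome 3, 96645584 to 96664519, plus strand, also with 30 exons. Gene positions are those of GENCODE M21 on the same build. The windows are chr9:62677605-62677904 for Itga11 and chr3:96645334-96645633 for Itga10, both on the plus strand, and capitals mark matches to the motifs described after them.
Itga11: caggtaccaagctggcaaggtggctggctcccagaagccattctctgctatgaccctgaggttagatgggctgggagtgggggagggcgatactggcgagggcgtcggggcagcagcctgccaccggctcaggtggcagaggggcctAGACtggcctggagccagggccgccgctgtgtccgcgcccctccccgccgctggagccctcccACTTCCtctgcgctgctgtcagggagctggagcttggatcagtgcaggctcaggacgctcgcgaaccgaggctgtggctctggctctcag
Itga10: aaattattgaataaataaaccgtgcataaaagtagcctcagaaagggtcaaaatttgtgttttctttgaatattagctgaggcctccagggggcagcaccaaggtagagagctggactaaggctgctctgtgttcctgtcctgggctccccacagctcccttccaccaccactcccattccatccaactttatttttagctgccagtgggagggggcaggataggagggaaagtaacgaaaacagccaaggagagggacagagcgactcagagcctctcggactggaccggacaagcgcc
The motifs were AGAC (a core of the site of SMAD factors, which carry TGF-beta signals), GGAAGT (a core of ETS factors) and GGGCGG (the GC box of SP factors), searched on both strands. The Itga11 window holds AGAC once and GGAAGT once, the second read on the other strand as ACTTCC, and its GC content is 68%. In the Itga10 window none of the 3 motifs occurs, and the GC content is 51%. Of 32851 windows of that length, 88% hold AGAC, 23.8% GGAAGT and 35.7% GGGCGG, so the matches describe the letters only.

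Itga11 was high in both fortified groups and in the moderate mutant group, and low in moderate wild type cells alone. It measured 54.9, 35.99 and 23.3 TPM in fortified mutant cells, and 103.1, 40.2 and 75.0 TPM in fortified wild type cells. It measured 60.2, 53.0 and 40.8 TPM in moderate mutant cells, and 6.19, 14.7 and 15.5 TPM in moderate wild type cells. Every library of the other 3 groups was above every moderate wild type library, while those 3 groups overlapped one another. The group means were 38.1 ± 15.9 TPM in fortified mutant, 72.8 ± 31.5 in fortified wild type, 51.3 ± 9.81 in moderate mutant and 12.1 ± 5.16 in moderate wild type cells (SD, n = 3 each). In order of these means, fortified wild type, moderate mutant and fortified mutant cells differed from their neighbours by less than the larger SD of each pair. The differences were more than the SD of moderate mutant cells.

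**Figure D1:**
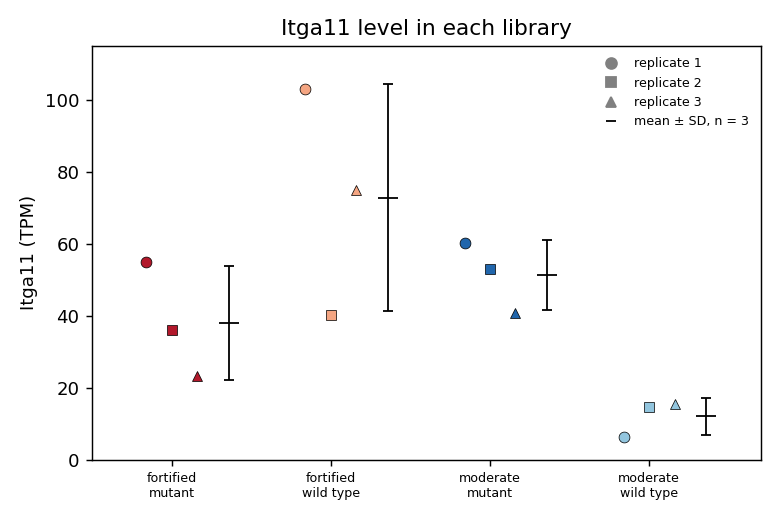
Level of Itga11 (vertical axis, TPM) in each of the 12 libraries by group, with marker shapes for replicates and bars for the mean ± SD (n = 3). The 3 moderate wild type libraries lie between 6.19 and 15.5 TPM, under all 9 others, of which the lowest is fortified mutant 3 at 23.3 TPM.

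The fitted differences of Itga11 follow from those levels. In mutant against wild type cells, the log2 fold change was 1.85 (SE 0.43) at moderate folic acid and -0.85 (SE 0.42) at fortified folic acid. In fortified against moderate cells, it was -0.08 (SE 0.42) in mutant cells and 2.63 (SE 0.45) in wild type cells. The difference between the genotype effects, fortified minus moderate, was -2.70 (SE 0.60) on the log2 scale. The SEs take no account of the choice of Itga11 by these same values, so they do not serve as a test.

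Those values rest in part on libraries that stand apart. Moderate wild type 1 had the lowest Itga11 of all, and fortified mutant 2 and 3 had the lowest values of their group. In these libraries muscle and neuron markers were high for their groups. Moderate mutant 1 and 2 had muscle marker sums of 1910 and 1920 TPM, above the 1610 TPM of fortified mutant 3, beside 60.2 and 53.0 TPM of Itga11. Leaving out these 3 leaves fortified mutant 1 as the only library of its group, so refit values for fortified mutant cells rest on that library alone. Without these 3 libraries the log2 fold change was 1.53 in moderate mutant against moderate wild type cells and 2.28 in fortified against moderate wild type cells. In mutant cells the fortified against moderate value turned to 0.42, and in fortified cells the mutant against wild type value was -0.34. The summed fibroblast markers were also highest in fortified wild type cells and lowest in a moderate wild type library, with 4120 to 7250 TPM in fortified mutant, 9080 to 13700 in fortified wild type, 4960 to 5710 in moderate mutant and 2410 to 5620 TPM in moderate wild type cells. Collagen genes weigh most in these sums: Col1a1, Col1a2 and Col3a1 averaged 2510, 1680 and 796 TPM, the highest of the markers. In bulk RNA, fewer cells of a type and less RNA per cell cannot be told apart. The part of the markers in the Itga11 pattern was not tested.

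Itga1, the alpha chain that prefers collagen IV, followed Itga11 only in part. It measured 10.4, 20.0 and 24.4 TPM in fortified mutant cells, and 20.1, 15.98 and 15.7 TPM in fortified wild type cells. It measured 23.4, 22.1 and 15.1 TPM in moderate mutant cells, and 16.7, 5.82 and 7.91 TPM in moderate wild type cells. Moderate wild type 2 and 3, which carried Ddx3y, were the lowest of the 12, but moderate wild type 1, which carried Xist, lay among the other groups. Within their groups, Itga1 was highest in moderate wild type 1 and in fortified mutant 2 and 3. In these libraries muscle and neuron markers were high for their groups, and the part of the markers in the Itga1 values was not tested. Itga1 and Itga2 are neighbours on chromosome 13, minus strand, with 20995 bases between them, and the gene Pelo lies within an intron of Itga1. Of the 18599 exonic bases of Itga1, 685 are shared with the gene model Gm49395 on the same strand.

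By edgeR's quasi-likelihood test with Benjamini-Hochberg adjustment, Itga1 did not pass in any comparison. Its log2 fold change in fortified against moderate wild type cells was 0.91 (SE 0.35, 95% interval 0.15 to 1.67, adjusted p = 0.182). The 2 groups did not overlap in CPM but did in TPM. Without the 3 libraries that stand apart the value was 1.36, and without moderate wild type 1 alone it was 1.35 (adjusted p = 0.0383). In moderate mutant against moderate wild type cells it was 0.84 (SE 0.35, interval 0.08 to 1.59, adjusted p = 0.624), and 1.30 without the 3 libraries. It was 0.20 in fortified against moderate mutant cells (adjusted p = 0.765), and -0.63 without them, where only fortified mutant 1 was left in its group.

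Itga10, the chondrocyte alpha chain, was a low transcript with 83 to 252 counts per library. It measured 1.01, 0.670 and 0.715 TPM in fortified mutant cells, and 1.12, 0.979 and 1.20 TPM in fortified wild type cells. It measured 1.92, 2.61 and 2.54 TPM in moderate mutant cells, and 1.33, 1.29 and 1.10 TPM in moderate wild type cells. The 3 moderate mutant libraries were the highest of the 12, and fortified mutant 2 and 3 were the lowest. Of its 5186 exonic bases, 1739 are shared with the gene model Gm42957, which has no row in the table, so reads of that model could count for Itga10.

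Itga10 was the one gene of the other 6 that passed the test. It fell in fortified against moderate mutant cells, with a log2 fold change of -1.23 (SE 0.28, 95% interval -1.84 to -0.62, adjusted p = 0.0308 by edgeR). In that comparison 6.93% of tested genes passed, 2.74% of tested genes with lower values, and 38.2% of tested genes had groups that did not overlap in CPM. In moderate mutant against moderate wild type cells it was 0.76 (SE 0.28, interval 0.16 to 1.36, adjusted p = 0.605), again with no overlap. It was -0.05 in fortified against moderate wild type cells (adjusted p = 0.937), and in fortified mutant against fortified wild type cells -0.42 (adjusted p = 0.939).

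The call on Itga10 in mutant cells needed most of the libraries. Without the 3 libraries that stand apart the log2 fold change was -0.91, with only fortified mutant 1 left in its group. The adjusted p was 0.105 without fortified mutant 2, 0.072 without fortified mutant 3, and 0.0788, 0.116 and 0.114 without moderate mutant 1, 2 and 3. The sign was the same under all 24 alternatives run for that comparison, and 17 of them passed. The summed TPM of 9 chondrocyte markers was 118 to 186 in fortified mutant, 71.3 to 122 in fortified wild type, 150 to 413 in moderate mutant and 46.6 to 259 in moderate wild type cells. Of these markers Col2a1, the cartilage collagen, averaged 113 TPM over the libraries and Acan, the cartilage proteoglycan, 2.97 TPM. In fortified against moderate cells, 6 of the 9 markers were positive and 3 negative in mutant cells (median log2 fold change 0.34), where Itga10 was lower, and none passed. Averaged over genotypes, 3 were positive and 6 negative, and the cartilage factor Sox9 rose (0.98, adjusted p = 0.0257). The part of chondrocyte RNA in the Itga10 values was not tested.

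Itga2, the platelet and epithelial alpha chain, was the scarcest of the 7, with 33 to 162 counts per library. It measured 0.299, 0.645 and 0.674 TPM in fortified mutant cells, and 0.734, 0.467 and 0.336 TPM in fortified wild type cells. It measured 0.799, 0.760 and 2.10 TPM in moderate mutant cells, and 0.818, 1.69 and 0.579 TPM in moderate wild type cells. One library in each moderate group stood well above the rest, and the fortified and moderate libraries overlapped in CPM. In TPM those of mutant cells did not overlap, but the share of all genes without overlap in TPM was not counted. The log2 fold change in fortified against moderate cells was -0.87 in mutant (SE 0.55, adjusted p = 0.351) and -0.88 in wild type cells (adjusted p = 0.397). The 4 platelet and megakaryocyte markers summed to 1.20 to 5.82 TPM, with Itga2b and Pf4 detected in every library and Gp9 at 0 in every library, and the 7 epithelial markers summed to 11.7 to 55.6 TPM. Their part in the Itga2 values was not tested.

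The shared beta chain Itgb1 was the most abundant of the 7 in every library, and its level ran from 651 to 1542 TPM. It averaged 860 ± 184 TPM in fortified mutant, 1030 ± 208 in fortified wild type, 1350 ± 68.7 in moderate mutant and 1250 ± 285 in moderate wild type cells (SD, n = 3 each). All 3 fortified mutant libraries, at 651, 934 and 996 TPM, were under the moderate mutant ones, at 1293, 1326 and 1425 TPM. The log2 fold change between those groups was -0.32 (SE 0.26, adjusted p = 0.480). In the other 3 comparisons it ran from -0.22 to -0.08, with adjusted p from 0.733 to 0.964.

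**Figure D2:**
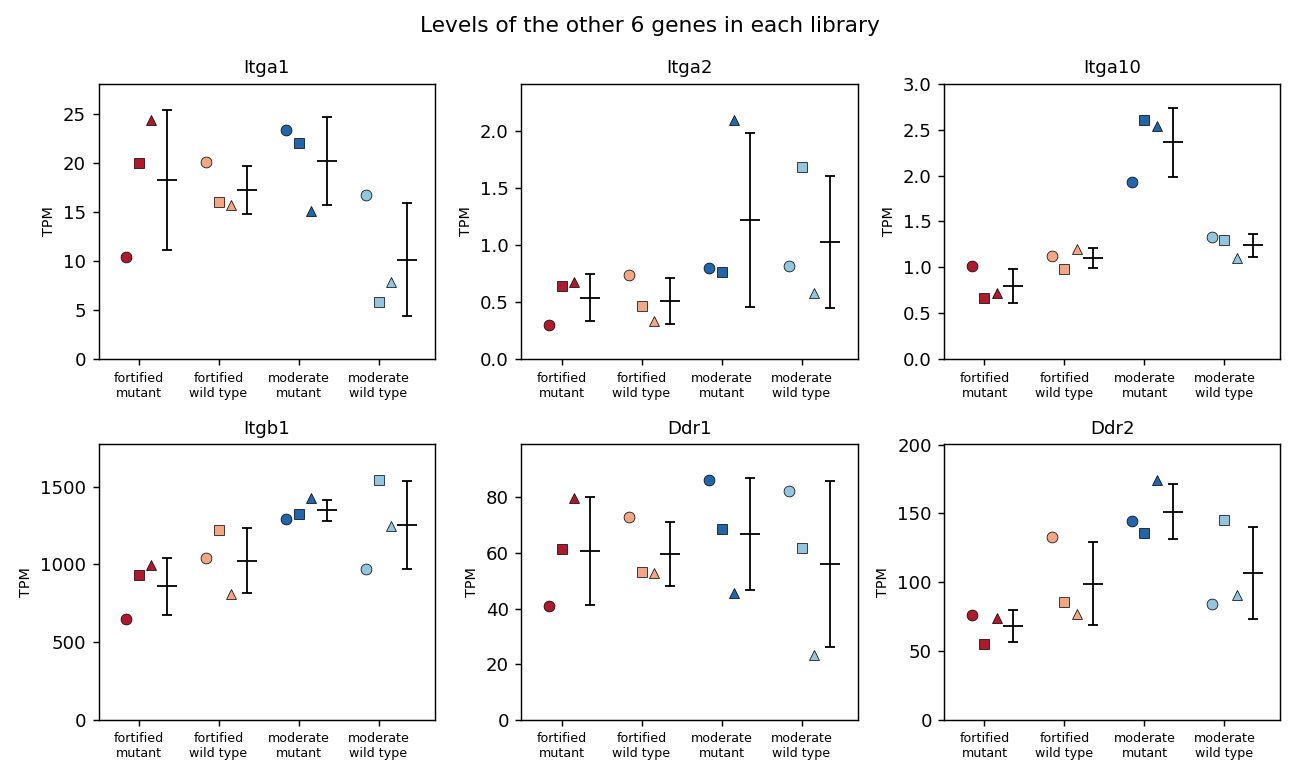
Levels of Itga1, Itga2, Itga10, Itgb1, Ddr1 and Ddr2 (vertical axes, TPM, each with its own scale from 0) in the 12 libraries by group, with the mean ± SD (n = 3). Itga10 is highest in the moderate mutant libraries (1.92 to 2.61 TPM), and Ddr2 is lower in the fortified mutant (55.0 to 75.8 TPM) than in the moderate mutant libraries (136 to 174 TPM).

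Since all 4 alpha chains pair with the same beta chain, their levels were also summed, in TPM. The 4 alpha chains summed to 57.7 ± 8.76 TPM in fortified mutant, 91.6 ± 33.7 in fortified wild type, 75.1 ± 13.3 in moderate mutant and 24.6 ± 0.924 in moderate wild type cells (SD, n = 3 each). The moderate wild type sum was nearly the same in all 3 libraries (23.5 to 25.1 TPM), although Itga11 made 24.7% of it in one of them and up to 62.6% in another. In moderate wild type 1, Itga1 was at 16.7 TPM beside 6.19 TPM of Itga11. The Itga11 share averaged 64.2 ± 17.5% in fortified mutant, 77.8 ± 7.04% in fortified wild type, 68.2 ± 1.30% in moderate mutant and 49.7 ± 21.7% in moderate wild type cells.

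Itgb1 exceeded the alpha sum in every library. The ratio of Itgb1 to the alpha sum was 15.4 ± 5.27 in fortified mutant, 12.8 ± 7.36 in fortified wild type, 18.5 ± 4.46 in moderate mutant and 51.4 ± 13.5 in moderate wild type cells. Its lowest moderate wild type value, 38.8, was above the highest of all other groups, 23.5. The ratio of Itga11 to Itga1 ran from 0.955 to 5.26 in fortified mutant, 2.51 to 5.12 in fortified wild type, 2.40 to 2.71 in moderate mutant and 0.37 to 2.53 in moderate wild type cells. Itga11 was below Itga1 in moderate wild type 1 and in fortified mutant 3, both with muscle and neuron markers high for their groups. These sums and ratios contain Itga11, whose level chose it, and no test was made on them. Itgb1 also pairs with alpha chains that bind other ligands.

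**Figure D3:**
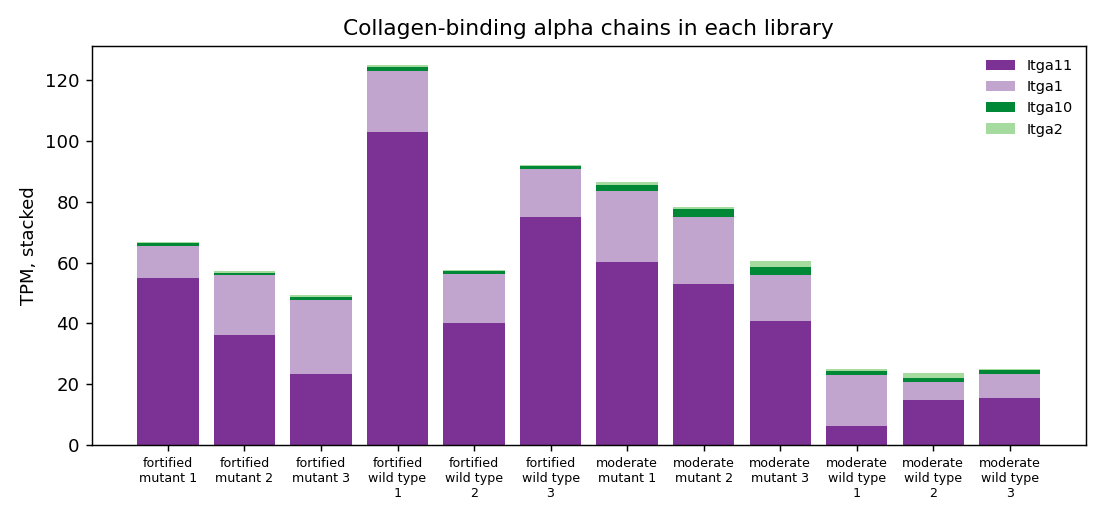
Stacked TPM of Itga11, Itga1, Itga10 and Itga2 (vertical axis) in each of the 12 libraries. The 3 moderate wild type stacks reach 23.5 to 25.1 TPM and the others 49.2 to 125 TPM, and the Itga11 segment is smaller than the Itga1 segment in moderate wild type 1 and fortified mutant 3.

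Of the tyrosine kinase receptors, Ddr2, the form of mesenchymal cells that answers to fibrillar collagens, measured 75.8, 55.0 and 74.2 TPM in fortified mutant cells and 133, 85.9 and 77.0 TPM in fortified wild type cells. It measured 144, 136 and 174 TPM in moderate mutant cells, and 84.4, 145 and 90.8 TPM in moderate wild type cells. The fortified mutant libraries were all under the moderate mutant ones. They overlapped the fortified wild type ones in CPM and lay under them in TPM, for which the share of all genes was not counted. The log2 fold change in fortified against moderate mutant cells was -0.82 (SE 0.24, 95% interval -1.36 to -0.29, adjusted p = 0.0627 by edgeR). It passed under 7 of 24 alternatives, with adjusted p of 0.0157 by DESeq2 and 0.012 by limma on log2(TPM + 1), and by edgeR 0.0291 or 0.0454 when the first or the second moderate wild type library was left out. In the TPM fit the median of all genes was itself -0.23, against 0.04 in the count fit. Ddr2 was at -0.01 (adjusted p = 0.983) in fortified against moderate wild type cells. An antisense gene, 3110045C21Rik, shares 90 exonic bases with Ddr2.

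Ddr1, the form typical of epithelia, averaged 60.8 ± 19.4 TPM in fortified mutant, 59.5 ± 11.5 in fortified wild type, 66.8 ± 20.3 in moderate mutant and 55.9 ± 29.9 in moderate wild type cells (SD, n = 3 each). It did not pass in any of the 4 comparisons of groups, with log2 fold changes from 0.08 to 0.26 and adjusted p from 0.700 to 0.983. Its spread was within groups. In moderate wild type cells it ran from 23.4 to 82.2 TPM, highest in the library whose muscle and neuron markers were high for its group. In fortified mutant cells it ran from 40.99 to 79.9 TPM, highest in the other 2 libraries with such markers. Their part in the Ddr1 values was not tested. Ddr2 made 53.4 ± 9.94% of the summed TPM of both receptors in fortified mutant, 61.9 ± 2.60% in fortified wild type, 69.4 ± 8.70% in moderate mutant and 66.8 ± 14.7% in moderate wild type cells.

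The comparisons can then be read across the class. Among the fortified cells, mutant against wild type, none of the other 6 genes passed (adjusted p from 0.939 to 0.983), beside 0% of all genes, and none of the 7 had groups that did not overlap in CPM, beside 10.3% of all genes. By an unadjusted p under 0.05, 500 genes passed there, and by DESeq2 7 genes did. Among the moderate cells, mutant against wild type, none of the other 6 passed (adjusted p from 0.605 to 0.974), beside 0% of all genes. There 1195 genes had an unadjusted p under 0.05 and DESeq2 called 42. Itga10 and Itga11 were higher in moderate mutant cells with no overlap in CPM, in which direction 6.34% of all genes stood.

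In fortified against moderate mutant cells, 1 of the other 6 genes passed, and Itga10, Itgb1 and Ddr2 were lower with no overlap in CPM, in which direction 18.5% of all genes stood. For wild type cells, fortified against moderate, none of the other 6 passed, beside 0.0263% of all genes (4 genes). Itga1 and Itga11 were higher there with no overlap in CPM, in which direction 11% of all genes stood. The unadjusted p of 2984 genes was under 0.05 in that comparison, and DESeq2 called 1154. Each group stands in 2 of these comparisons, so they are not independent of each other.

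**Figure D4:**
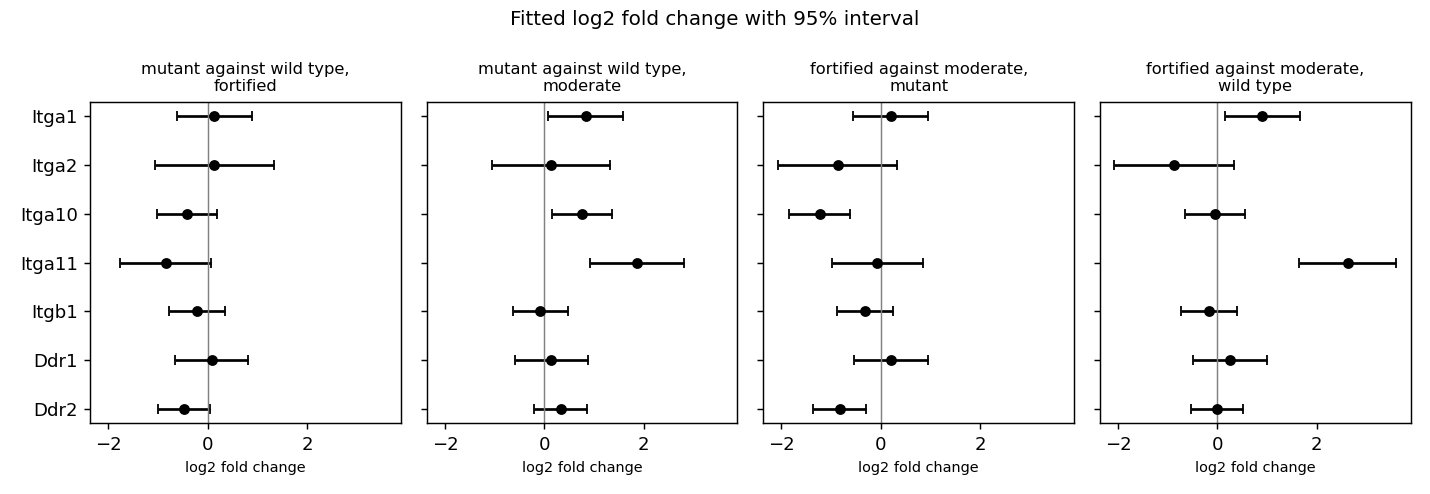
Fitted log2 fold change (horizontal axes) of the 7 genes with 95% intervals, for mutant against wild type cells at fortified and at moderate folic acid and for fortified against moderate cells in mutant and in wild type. Itga11 lies at 1.85 in the moderate genotype comparison and at 2.63 in wild type cells, and Itga10 at -1.23 in mutant cells. The intervals of Itga11 take no account of its choice by these values and are no test of it.

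Averaged over genotypes, Itga10 fell in fortified against moderate cells by 0.64 on the log2 scale (SE 0.19, adjusted p = 0.0416 by edgeR), the one call among the other 6 genes. In that average 17.8% of all genes passed, and 8.86% did so downwards. The call was lost under 13 of 23 alternatives, among them leaving out the 3 libraries (-0.49). Leaving out any 1 library other than fortified mutant 1 or moderate wild type 1 also ended it, with adjusted p from 0.0533 to 0.103. Itga1 was at 0.55 (adjusted p = 0.136), Itga2 at -0.87 (0.138), Ddr2 at -0.42 (0.111), Itgb1 at -0.25 (0.370) and Ddr1 at 0.23 (0.539), with the adjusted p in parentheses. Without moderate wild type 1, Itga1 (0.77, adjusted p = 0.0222) and Ddr2 (-0.51, adjusted p = 0.0343) passed as well. By limma on log2(TPM + 1), Itgb1 (-0.48, adjusted p = 0.0486) and Ddr2 (-0.63, adjusted p = 0.0232) also passed, in a fit where the median of all genes was -0.15. Itga11, described only, was at 1.28 (SE 0.30).

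The test of whether the folic acid effect differed between genotypes called none of the other 6 genes (lowest adjusted p = 0.708), beside 0% of all genes by edgeR. By unadjusted p under 0.05, 1015 genes passed, and DESeq2 called 5. The difference of the genotype effects, fortified minus moderate, was -1.18 (SE 0.39) for Itga10, -0.81 (SE 0.34) for Ddr2 and -0.71 (SE 0.49) for Itga1. Opposite behaviour of these genes in mutant and wild type cells is therefore not shown by the test.

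The ligands of these receptors, 16 collagen genes, were all tested. In mutant against wild type cells, 2 were positive and 14 negative at fortified folic acid (median log2 fold change -0.67, against 0.01 over all tested genes), and 15 were positive at moderate folic acid (median 0.52, against -0.05). In fortified against moderate cells, 9 were positive in mutant cells (median 0.09, against 0.04) and 15 in wild type cells (median 1.47, against -0.04). None passed in those 4 comparisons, where the smallest adjusted p was 0.0503, of Col11a1, a fibrillar collagen chain (1.46). By DESeq2, 10 of the 16 rose in wild type cells, where it called 1154 genes in all. By edgeR with no filter on low counts 8 did, where 80 genes were called in all. In the same test, leaving out fortified mutant 1 gave 9, leaving out moderate wild type 1 gave 8, and leaving out moderate wild type 2 gave 4. In the same order, 260, 1012 and 104 genes were called in all. Fortified mutant 1 is not a library of that comparison. Leaving out any other single library called none of the 16. None was called by limma-voom, in either TPM fit, with median-of-ratios scaling, with library totals or in a fit on only the groups compared. The filter of 1 CPM in 3 libraries and the Xist covariate called 1 each, and the replicate block 2. Averaged over genotypes, 9 of 16 rose in fortified cells, beside 8.9% of all tested genes, among them Col6a3 (1.48), Col6a2 (1.29) and Col6a1 (1.19), the chains of beaded collagen VI, and Col1a1 (1.26), a chain of collagen I. Without the 3 libraries that stand apart, the median was 0.99 in the average, 1.64 in wild type cells and 0.37 in mutant cells. All 16 had a negative difference of genotype effects (median -1.38, against 0.04 over all tested genes), as had Itga11, but none of the 16 passed there. The sign was not particular to them: the 11 tested other integrin alpha chains and the 12 fibroblast markers were all negative too. The 12 skeletal muscle markers and the 8 neuron markers were all positive. Col1a1 and Col3a1 also count among the fibroblast markers, of which 6 of 12 rose in the average.

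Among integrin chains that bind other ligands, 11 of 14 alpha chains were tested. None passed in any comparison in the fit of all 12 libraries (in the average 3 were positive and 8 negative). With the 3 libraries that stand apart left out, 4 of the 11 were positive and 7 negative in the average (median -0.43). Of the 7 other beta chains, averaged over genotypes, Itgb3, the beta chain of the vitronectin receptor, rose in fortified cells by 1.54 (SE 0.24, adjusted p = 0.00571). In wild type cells it was at 2.18 (adjusted p = 0.0503). Itgb7, a leukocyte beta chain, fell in the average, with a log2 fold change of -1.95 (adjusted p = 0.0132). Of the 7 beta chains, 4 were positive and 3 negative in the average without the 3 libraries (median 0.22). The 6 macrophage markers were all negative in the average over all 12 libraries (median -0.41), and their part in the Itgb7 value was not tested.

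Calls among the genes downstream of the receptors stand beside 6.93% of all tested genes in mutant cells and 17.8% in the average. Of 21 focal adhesion adaptors and kinases, the tensin Tns3, which links integrin tails to actin, fell in fortified against moderate mutant cells (-0.59, adjusted p = 0.0358). In the average Tns3 fell (-0.37, adjusted p = 0.0258) and Tns2, another tensin, rose (0.61, adjusted p = 0.0463). In the average without the 3 libraries, 4 of the 21 were positive and 17 negative (median -0.26, against -0.08 with all 12 libraries). Of 11 partners of discoidin receptor signalling, the adaptor Nck2 rose in the average (0.61, adjusted p = 0.0132). Without the 3 libraries, 6 of the 11 were positive and 5 negative in the average (median 0.07). None of 13 activators and inactivators of integrins passed in any comparison in the fit of all 12 libraries, nor did any of 5 tested other collagen receptors. Without the 3 libraries, the median in the average was -0.06 over 12 tested activators and inactivators and -0.10 over the 5 other collagen receptors. Calls in the average without the 3 libraries are not given for any list, since only fortified mutant 1 was left in its group. Whether a list had none there is therefore not stated.

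Among 19 tested genes of TGF-beta signalling and myofibroblasts, 4 rose in fortified cells averaged over genotypes, beside 8.9% of all tested genes. These were Cthrc1 (1.49), a secreted collagen-associated protein, Lrrc15 (1.35), a membrane protein of activated fibroblasts, Postn (1.17), the matrix protein periostin, and Ltbp2 (0.72), a latent TGF-beta binding protein. The median of the list was 0.26, against 0 over all genes, with 12 positive and 7 negative. Without the 3 libraries, 10 were positive and 9 negative (median 0.14).

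The genes whose log2 CPM ran closest to Itga11 over the 12 libraries were ranked by Pearson's r among 10575 other genes with a mean of at least 5 CPM. The first was Mfap4, a glycoprotein of elastic fibres (r = 0.93), followed by Eln, elastin itself (r = 0.92), and Fam101b (r = 0.91). Adcy3, an adenylate cyclase, and Arfgap1 had r = 0.90, as had the transporter Slc2a10 and Lix1l. Galnt10, a glycosyltransferase, Fbxo32, a ubiquitin ligase subunit, and Cdh11, the mesenchymal cadherin, had r from 0.881 to 0.893, and the next gene outside, Ccdc102a, had 0.876. Mfap4 averaged 424 CPM in fortified mutant, 566 in fortified wild type, 270 in moderate mutant and 125 in moderate wild type cells. Eln averaged 1290, 1860, 1090 and 371 CPM in the same groups. The points share the 4 groups and the library composition, and only 1 of the 10 genes was still among the first 10 when deviations from group means were correlated or when the 3 libraries were left out.

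**Figure D5:**
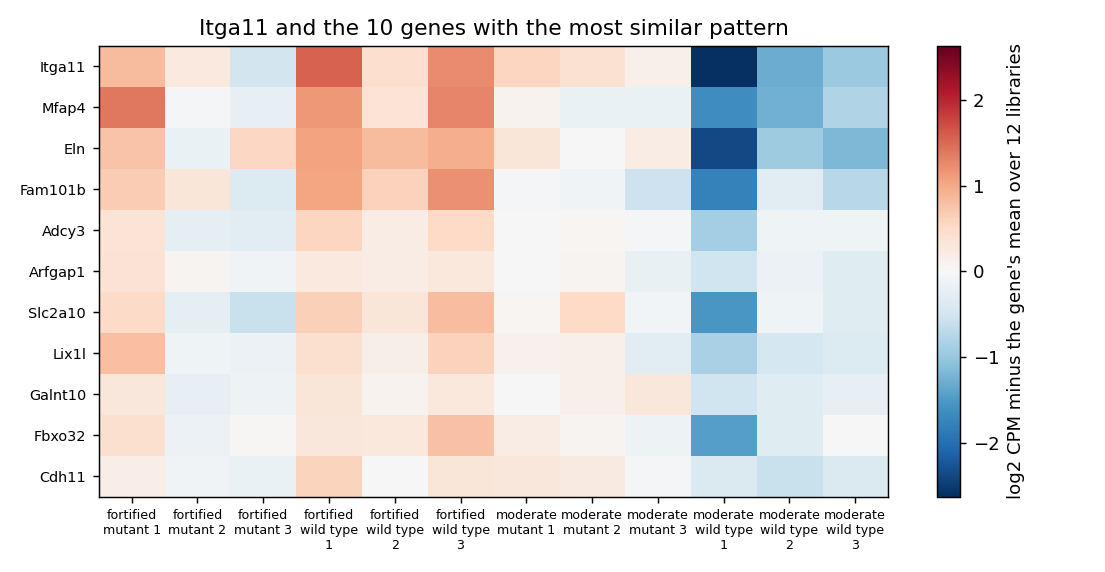
Log2 CPM minus the mean of each gene over 12 libraries (colour) for Itga11 and the 10 genes with the highest Pearson's r with it (rows), by library (columns). The 3 moderate wild type columns are low for Mfap4 (-1.63 to -0.79) and Eln (-2.38 to -0.93), and moderate wild type 1 is the lowest in both.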

How the data were processed

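The authors deposited 1 table of salmon expected counts and 1 of TPM per gene. Which salmon version and annotation they used is not stated in the sources used here. The build is mm10, per the submitters' processing notes. RNA was extracted with trizol and chloroform, and libraries made with the TECAN Universal Plus mRNA-Seq kit, per the labels' protocols. Columns were assigned to folic acid levels by the numbers in the submitters' sample descriptions, since the letters B and P of the column names are unexplained.

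Expected counts were rounded. The filter of filterByExpr (count at least 10, total at least 15) left 15186 genes. Scaling was by TMM (factors 0.91 to 1.08), with a prior count of 2 for log2 CPM. One fit took all 12 libraries with a mean per group in edgeR 4.0.16 (glmQLFit, glmQLFTest; R 4.3.3). Adjusted p-values are Benjamini-Hochberg over all tested genes, with a threshold of 0.05. The average over genotypes weights them equally. Intervals use the t quantile of the fit. Groups do not overlap when every library of one lies above every library of the other. The procedure was tested on simulated data. No 2 libraries agreed within sampling noise. The common biological coefficient of variation was 0.332, and the fewest counts stood behind Itga2 and Itga10.

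Calls of Itga11 were not counted. The genes, gene lists and alternatives were chosen with earlier results of these data known. Named genes were the 7 receptors, the 10 genes most like Itga11 (model and clone names left out), and of each list the passing genes, up to 4 in each direction by size, or up to 2 with the smallest p. Alternatives were DESeq2 1.42.0, limma 3.58.1 (voom, and trend on log2(TPM + 1) and log2(TPM + 0.1)), other scalings and filters, a block by replicate number, only the groups compared, Xist as covariate, and leaving out libraries.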

Additional observations from a re-analysis of the deposited data

How the results depend on the processing

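Results under another setting are given as the number of genes called among all tested and the number called of the 6 receptor genes other than Itga11. Among fortified cells, mutant against wild type, DESeq2 called 7 genes. At moderate folic acid it called 42 genes, where edgeR called 0. For fortified against moderate mutant cells (1053 genes and 1 of the 6 by edgeR), DESeq2 called 2349 and 2, limma on log2(TPM + 1) 2814 and 2, limma on log2(TPM + 0.1) 2805 and 2, and a fit on only the groups compared 2122 and 2. Library totals called 2 of the 6. Calls without the 3 libraries that stand apart are not counted here, since only fortified mutant 1 was left in its group. With 1 library left out, 0 genes (without moderate mutant 1) to 2073 genes (without moderate wild type 1) and 0 to 2 of the 6 passed. For fortified against moderate wild type cells (4 genes and 0 of the 6), DESeq2 called 1154 genes, no filter 80, keeping genes of 1 CPM in 3 libraries 39, and leaving out the 3 libraries 1298 genes and 1 of the 6 (Itga1). There limma-voom called 7 genes, limma on log2(TPM + 1) 1 and on log2(TPM + 0.1) 13, library totals 2, the Xist covariate 16 and a fit on only the groups compared 0. With 1 library left out, 1 (without moderate mutant 2) to 1012 genes (without moderate wild type 1) and 0 to 1 of the 6 passed. Averaged over genotypes (2696 genes and 1 of the 6), both TPM fits called 3 of the 6, and 0 passed with no filter. With 1 library left out, 1411 to 4025 genes and 0 to 3 of the 6 passed. For the difference between genotype effects DESeq2 called 5 genes.

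The replicate numbers do not pair the libraries: correlations of deviations from group means between libraries of the same number ran from -0.199 to 0.244. With the number as a block, 65 genes passed in fortified against moderate wild type cells, and 559 genes and 0 of the 6 in mutant cells (Itga10, adjusted p = 0.0557). In the average 0 of the 6 passed under the block.

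Some values not past the threshold turned sign. For mutant against wild type cells at moderate folic acid, Itgb1 was at 0.13 in both TPM fits and 0.20 with the Xist covariate, with which Ddr1 was at -0.15. Without the 3 libraries Itga2 was at -0.038. With 1 library left out Itga2 ran from -0.58 to 0.64, Itgb1 from -0.28 to 0.046 and Ddr1 from -0.18 to 0.45. At fortified folic acid, Ddr1 was at -0.003 and -0.004 in the TPM fits. With the Xist covariate Itga1 was at -0.31, Itgb1 at 0.017 and Ddr1 at -0.24, and without the 3 libraries Itga1 was at -0.68, Itga2 at -0.72 and Ddr1 at -0.49. With 1 library left out Itga1 ran from -0.089 to 0.40, Itga2 from -0.086 to 0.42 and Ddr1 from -0.12 to 0.29. In fortified against moderate mutant cells, the TPM fits put Itga1 at -0.19 and -0.20 and Ddr1 at -0.14 in both. Without the 3 libraries Itga1 was at -0.63, Itga11 at 0.42 and Ddr1 at -0.39. With 1 library left out Itga1 ran from -0.037 to 0.47, Itga11 from -0.44 to 0.17 and Ddr1 from -0.018 to 0.41. In wild type cells limma-voom put Ddr2 at 0.001, and with 1 library left out Ddr1 ran from -0.062 to 0.57 and Ddr2 from -0.20 to 0.23. The TPM fits moved the median of all genes to between -0.30 and 0.17, depending on the comparison. The causes of these changes were not tested.

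The 33 counts of Itga2 in its lowest library limit its precision.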
